A study of Mus musculus with 9 samples.

Results

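Genes of glycolysis, of lactate handling and of the steps between pyruvate, the mitochondrion and gluconeogenesis were described across 9 Affymetrix arrays of mouse embryonic stem cells. A list of 36 gene symbols defined the set, and a gene was included where the platform's annotation gave a probe set that symbol alone. For a gene with several such probe sets the one with the highest mean over the arrays was used. By this rule 33 of the 36 genes were measured, among 22180 genes tested. The 3 others, Gpi1, Eno1 and Aldoa (named only together with a related gene), are not analysed here.

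All cells were of the Nanog-GFP (NG4) reporter line, of strain 129/Sv, grown with LIF on gelatin, transduced with a pLKO.1-based lentivirus and kept under 2 μg/mL puromycin for 72 h. The 3 groups, of 3 arrays each, differed in the hairpin: shControl, shPhf5a or shPaf1. Phf5a belongs to the SF3b complex of the spliceosome, and Paf1 to the Paf1 complex that travels with elongating RNA polymerase II. The series deals with Phf5a in transcriptional elongation, and shPaf1 was the second knockdown. The labels name 1 hairpin per target in 1 line, so that effects of a hairpin beyond its target cannot be told apart. They do not say whether the replicates were grown or transduced separately, and p-values then cover only the spread between these arrays, which may be technical.

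Glycolysis turns glucose into pyruvate in a preparatory phase, which spends ATP, and a payoff phase, which makes ATP and NADH. Pyruvate is then reduced to lactate and exported, or enters the mitochondrion through the pyruvate dehydrogenase complex, which the Pdk kinases switch off. Gluconeogenesis runs the path backwards through its own enzymes at the irreversible steps. Embryonic stem cells are known for rapid glycolysis, and many of its genes are textbook targets of the hypoxia-inducible factors and of Myc.

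Hairpins, array quality and cell identity were checked first. Phf5a fell by 1.24 log2 units in shPhf5a (SE 0.16, adjusted p = 0.00024) and Paf1 by 1.39 in shPaf1 (SE 0.08, adjusted p = 1.73e-06). The hairpins were not without effect on each other's target, with Phf5a at -0.57 in shPaf1 (adjusted p = 0.0183) and Paf1 at -0.25 in shPhf5a (adjusted p = 0.0267). Array medians lay between 6.22 and 6.31 log2 units. One shPhf5a array stood apart: replicate 2 kept 55.9% of the control's Phf5a, against 34.4% and 39.6% in replicates 1 and 3, and of the 33 genes 26 (78.8%) had it as the shPhf5a array nearest to the control mean, against 50.5% of all genes. Counts are therefore also given without it. Of 10 stem cell markers 9 lay above the median of all genes (6.70) in every group. The mean over the list was 10.53 to 10.58 in shControl, 10.16 to 10.38 in shPhf5a and 10.07 to 10.11 in shPaf1. In shPhf5a 7 of the 10 were called lower and 1 higher, and in shPaf1 7 lower and none higher. Of all genes 37.4% and 35.8% were called in shPhf5a and shPaf1. Among genes above the median level the shares were 62.1% and 59.9%. Both pairs of shares stand beside the marker lists that follow too. Trophectoderm markers moved with the groups, with a list mean of 7.15 to 7.26 in shControl, 8.21 to 8.53 in shPhf5a and 8.07 to 8.16 in shPaf1. Of 9 such markers, 8 were called higher in shPhf5a, and 5 higher and 1 lower in shPaf1. The dimmest, Elf5, stayed at 5.29, 5.26 and 5.24 in shControl, shPhf5a and shPaf1. Fibroblast markers had a list mean of 6.31 to 6.35, 6.16 to 6.24 and 6.83 to 6.93 in the same order. Of these 10, 1 was called higher and 2 lower in shPhf5a. In shPaf1 5 were called higher, most of all Acta2 (1.99) and Tagln (1.23), and 5 were not called. Primitive endoderm markers had a list mean of 7.18 to 7.33, 7.57 to 7.96 and 7.69 to 7.72. Of these 7, 3 were called higher and 1 lower in shPhf5a, and 4 higher in shPaf1. Pdgfra, higher in both knockdowns (0.58 in shPhf5a and 0.96 in shPaf1), was on this list and on the fibroblast list, and was counted in each. The part of these markers in the results was not tested, and fewer cells of one type cannot be told apart from less RNA per cell in such samples.

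Falls outnumbered rises in shPhf5a. Of the 33 genes 18 were lower and 7 higher than in shControl at an adjusted p under 0.05, and 8 did not pass. Over all genes 20.7% were called lower and 16.7% higher, 37.4% together. Bright genes were called more often, 62.1% of those above the median level, and 25 of the 32 glycolytic genes above that level (78.1%) were called. No overlap between the arrays of shPhf5a and shControl was found in 28 of the 33 genes, against 45.8% of all genes. That share was not split by level. The median difference was -0.20 log2 units, against -0.03 for all genes, and -0.36, -0.12 and -0.27 in shPhf5a replicates 1, 2 and 3. Without replicate 2, 21 genes were lower and 6 higher. Of the 25 calls 17 held under each of 18 other settings, 9 of which left out 1 array. Falls of at least 0.5 log2 units were found for 10 genes, from Pgk1 to Pdk1, and rises of that size for 3, Fbp1, Pdk4 and Fbp2.

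Fewer of the genes passed in shPaf1. Of the 33 genes 11 were lower and 5 higher, where 17.8% of all genes were lower and 18.0% higher (35.8% together). Among the 32 above the median level 15 were called (46.9%), which is below the 59.9% of all genes above that level. Arrays did not overlap in 22 genes, against 48.3% of all genes, a share that was not split by level. The median difference was -0.15, against -0.01 for all genes, with -0.13, -0.14 and -0.14 in shPaf1 replicates 1, 2 and 3. Only Pck2 and Ldhb fell by at least 0.5 log2 units, and Pdk4, Pfkfb2 and Pfkfb3 rose by that much. Under each of the 18 other settings 7 of the 16 calls held: Pfkfb2, Pfkfb3, Aldoc, Ldhb, Pdk3, Pdk4 and Pck2. Leaving out 1 of the 6 arrays compared lowered the share called over all genes from 35.8% to between 30.7% and 32.1%. Among the 33, the count of lower genes changed too. It was 7, 6 and 6 without shControl replicate 1, 2 or 3, 5 and 7 without shPaf1 replicate 1 or 2, and 15 without shPhf5a replicate 2, an array that enters this comparison only through the shared estimate of the spread.

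The knockdowns were also compared directly. With shPhf5a set against shPaf1, 13 genes were lower and 7 higher, where 16.3% of all genes were lower and 12.7% higher (29.0% together). Above the median level 20 of 32 genes (62.5%) were called, against 48.1% of all genes there. Arrays did not overlap in 23 of the 33 genes, against 37.7% of all genes, a share that was not split by level. The median difference was -0.10, against -0.02 for all genes. Without shPhf5a replicate 2, 15 genes were lower and 7 higher. Of the 20 calls 16 held under each of the 18 other settings. Both knockdowns were set against the same 3 control arrays, so that their differences from the control share those arrays' deviations.

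**Figure D1:**
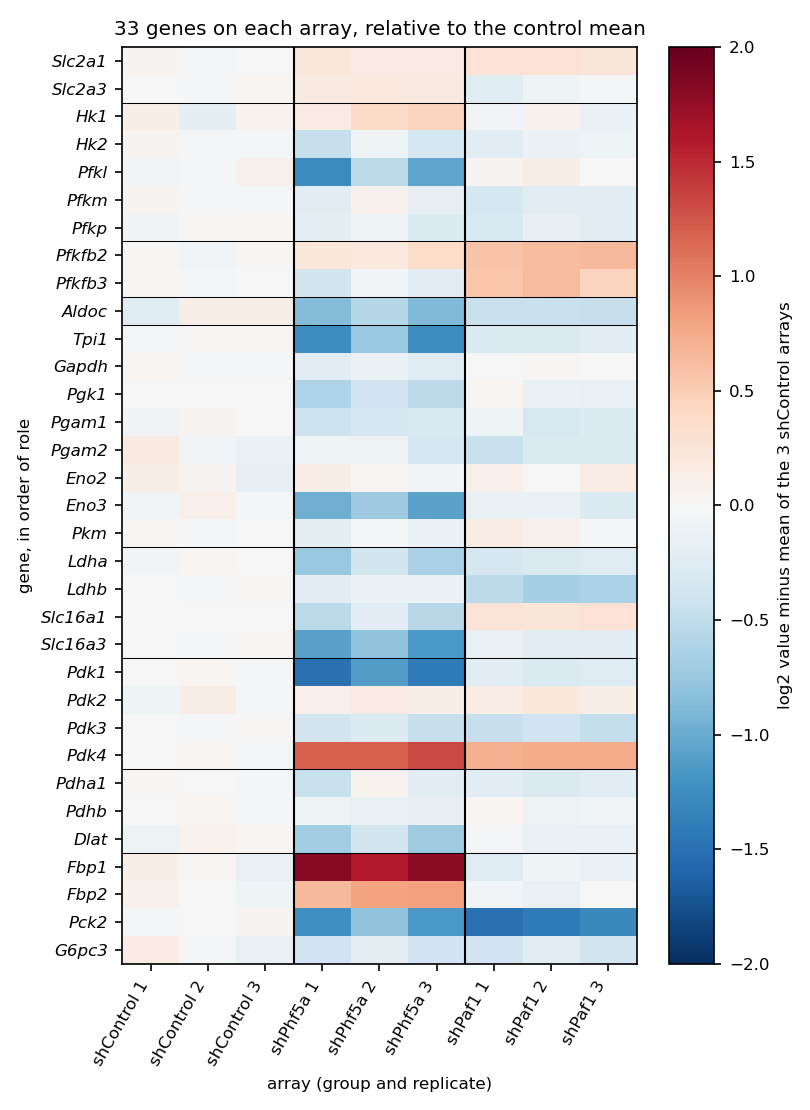
Log2 values of the 33 genes (rows, in order of role) on each of the 9 arrays (columns), as differences from the mean of the 3 shControl arrays; red is higher and blue lower. The shPhf5a columns hold their deepest blue at Pdk1 and their deepest red at Fbp1, and shPhf5a replicate 2 is the palest of the 3 in most of the blue rows.

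**Figure D2:**
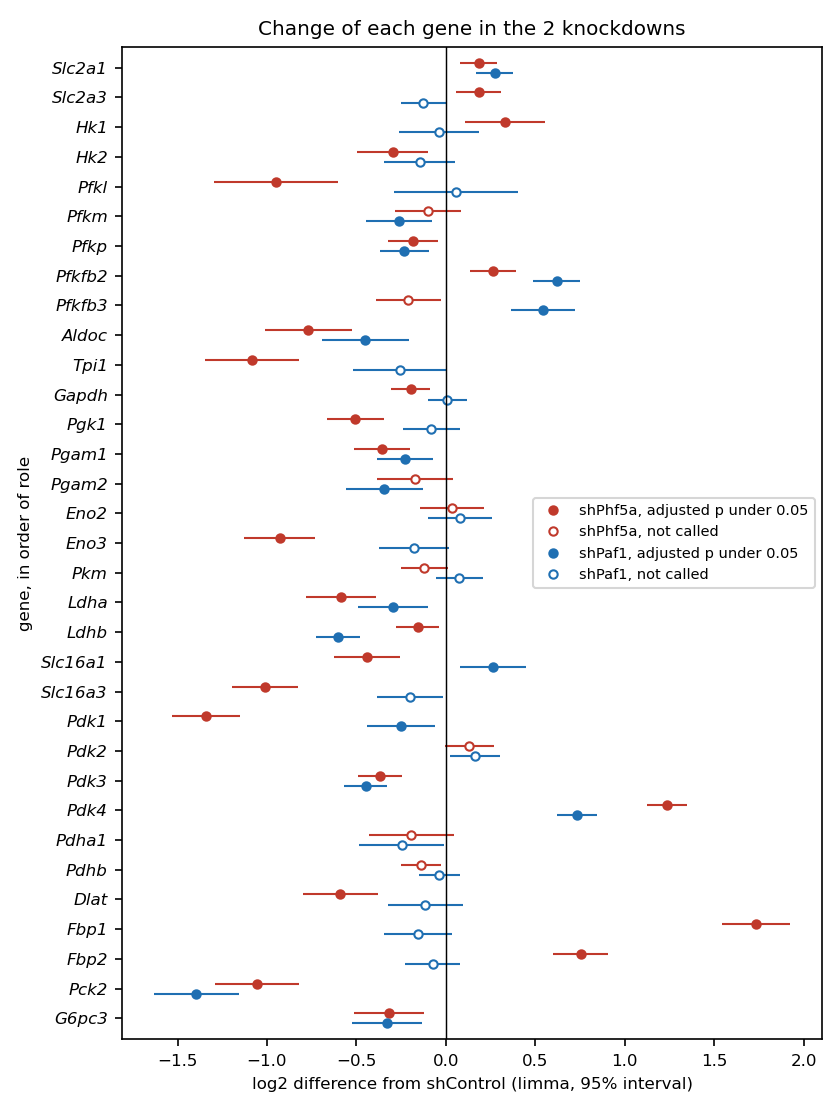
Log2 difference of each gene from shControl in shPhf5a (red) and shPaf1 (blue), with 95% intervals from limma; filled points passed at an adjusted p under 0.05. The red points reach from -1.34 (Pdk1) to 1.73 (Fbp1) and the blue points from -1.39 (Pck2) to 0.73 (Pdk4).

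Promoters are shown for 3 pairs of related genes on which the results turn: the kinase genes Pdk1 and Pdk4, which moved in opposite directions, the lactate exporter genes Slc16a1 and Slc16a3, which both fell in shPhf5a, and the bisphosphatase genes Fbp1 and Fbp2, which rose in shPhf5a. Each line gives the 250 bases before a RefSeq start in GRCm38.p6, 5′ to 3′ on the strand of the gene. Capitals mark ACGTG or GCGTG on either strand, the core letters to which hypoxia-inducible factors bind. CACGTG, the E-box of Myc, reads as ACGTG on both strands and then counts as 2 overlapping matches. Pdk1 has a further RefSeq start whose window is not shown.
Pdk1, chr2:71872974-71873223, + strand: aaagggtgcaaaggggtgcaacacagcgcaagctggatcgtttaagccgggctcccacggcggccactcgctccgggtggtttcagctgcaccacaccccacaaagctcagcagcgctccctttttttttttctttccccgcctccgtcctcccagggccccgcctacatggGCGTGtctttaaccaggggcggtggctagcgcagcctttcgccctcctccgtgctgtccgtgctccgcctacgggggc
Pdk4, chr6:5496279-5496528, - strand: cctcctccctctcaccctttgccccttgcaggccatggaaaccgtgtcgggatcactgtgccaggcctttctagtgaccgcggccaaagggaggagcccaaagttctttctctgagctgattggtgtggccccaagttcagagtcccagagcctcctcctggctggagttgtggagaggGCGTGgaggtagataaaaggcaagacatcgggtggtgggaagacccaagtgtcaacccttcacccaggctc
Slc16a1, chr3:104638414-104638663, + strand: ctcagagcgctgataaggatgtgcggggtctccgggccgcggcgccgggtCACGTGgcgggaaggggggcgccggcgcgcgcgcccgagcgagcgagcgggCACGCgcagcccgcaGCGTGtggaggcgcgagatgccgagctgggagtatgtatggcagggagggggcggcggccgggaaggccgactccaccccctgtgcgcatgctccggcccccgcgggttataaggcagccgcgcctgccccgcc
Slc16a3, chr11:120948817-120949066, + strand: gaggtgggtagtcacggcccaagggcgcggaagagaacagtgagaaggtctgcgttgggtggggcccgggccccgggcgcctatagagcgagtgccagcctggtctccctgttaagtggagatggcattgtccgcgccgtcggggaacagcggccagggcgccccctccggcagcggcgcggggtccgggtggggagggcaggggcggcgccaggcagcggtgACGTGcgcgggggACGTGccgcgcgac
Fbp1, chr13:62888283-62888532, - strand: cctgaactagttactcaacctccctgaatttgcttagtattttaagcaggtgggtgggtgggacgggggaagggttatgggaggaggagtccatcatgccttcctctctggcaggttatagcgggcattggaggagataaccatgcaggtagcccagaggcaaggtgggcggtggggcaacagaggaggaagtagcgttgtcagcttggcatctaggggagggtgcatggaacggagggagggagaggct
Fbp2, chr13:62858401-62858650, - strand: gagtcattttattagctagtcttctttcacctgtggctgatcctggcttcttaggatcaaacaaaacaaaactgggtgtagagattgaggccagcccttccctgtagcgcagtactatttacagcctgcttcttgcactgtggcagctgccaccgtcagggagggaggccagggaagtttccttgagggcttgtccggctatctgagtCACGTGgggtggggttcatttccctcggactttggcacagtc

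Pdk1 held 1 match, 78 bases before the start, and Pdk4 also 1, at 71 bases. Slc16a1 held 4 matches, at 134, 149, 199 and 200 bases, of which the last pair is 1 CACGTG, and Slc16a3 held 2, at 14 and 27 bases. Fbp2 held 2 that make up 1 CACGTG, at 41 and 42 bases, and no match was found in the Fbp1 window. Fbp1 and Fbp2 lie on the same strand of chromosome 13. RefSeq windows were found for 32 of the 33 genes (44 windows, since some genes have several starts); Slc2a3 had none in the table. ACGTG or GCGTG occurred in 34 of those 44 windows (77.3%), against 38.6% of all 32851 windows of that length. Windows of the same gene can overlap, as for Pfkm, so that a site can count more than once. ACGTG was in 19 (43.2%, against 16.6%), GCGTG in 23 (52.3%, against 28.2%) and CACGTG in 8 (18.2%, against 6.02%). The windows also differed in composition, with a median GC content of 59% and 13 CpG dinucleotides, against 52.4% and 6 in all windows, and its part in the shares was not tested.

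The genes of glucose import moved little, and upwards where they passed. Slc2a1 encodes GLUT1 and Slc2a3 encodes GLUT3, the main glucose carriers of early embryonic cells. Slc2a1 read 12.30, 12.21 and 12.25 in the shControl arrays, 12.48, 12.41 and 12.41 in shPhf5a and 12.54, 12.54 and 12.50 in shPaf1. It rose by 0.18 log2 units in shPhf5a (adjusted p = 0.0108, SE 0.05) and by 0.27 in shPaf1 (adjusted p = 0.0011, SE 0.05). A dimmer probe set of the gene, with a control mean of 6.48, went the other way, at -0.12 and -0.15, and with the mean over both probe sets neither call held (adjusted p = 0.688 and 0.422). Slc2a3 rose by 0.18 in shPhf5a (adjusted p = 0.026, SE 0.06) and was at -0.13 in shPaf1 (adjusted p = 0.113), and shPhf5a stood 0.31 above shPaf1 (adjusted p = 0.00226). The adjusted p of its rise exceeded 0.05 for Slc2a3 without shControl replicates 1 or 2 or shPhf5a replicate 3 (0.0648 to 0.0799), and with each array centred on its median (0.0825).

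In the preparatory phase the liver-type phosphofructokinase gene Pfkl fell most in shPhf5a. There 4 of the 6 genes from hexokinase to aldolase fell and 1 rose, against 20.7% and 16.7% of all genes. These are 83.3% called, against 62.1% of all genes above the median level, where the 6 lay. Phosphofructokinase catalyses the committed step of glycolysis, and Pfkl, Pfkm and Pfkp encode its liver, muscle and platelet subunits. Pfkl read 9.76, 9.77 and 9.90 in the shControl arrays, 8.54, 9.29 and 8.76 in shPhf5a and 9.86, 9.94 and 9.80 in shPaf1. The shPhf5a arrays lay below all others, with replicate 2 the highest of them, and the shPaf1 arrays overlapped the control. Pfkl fell by 0.95 log2 units in shPhf5a (adjusted p = 0.00089, SE 0.15, 1.93-fold) and was at 0.06 in shPaf1 (interval -0.29 to 0.40), and the knockdowns differed by -1.01 (adjusted p = 0.000923). Pfkp fell by 0.18 in shPhf5a (adjusted p = 0.0416) and by 0.23 in shPaf1 (adjusted p = 0.0145). Pfkm fell by 0.26 in shPaf1 (adjusted p = 0.0313) and was at -0.10 in shPhf5a (adjusted p = 0.397). Neither Pfkm nor Pfkp differed detectably between the knockdowns, with intervals of -0.02 to 0.35 and -0.09 to 0.19. Leaving out 1 array could bring the adjusted p of these smaller calls over 0.05. In shPhf5a Pfkp lost its call without shControl replicates 2 or 3, shPhf5a replicates 1 or 3 or shPaf1 replicate 3 (0.0607 to 0.145). In shPaf1 Pfkp lost its call without shControl replicates 2 or 3 or shPaf1 replicate 1 (0.0523 to 0.0584). Pfkm lost its call there without shControl replicates 1, 2 or 3 or shPaf1 replicates 1 or 2 (0.061 to 0.115). Quantile normalization brought the fall of Pfkp in shPhf5a to -0.11 (adjusted p = 0.159). Pfkm was called lower in shPhf5a without its replicate 2 (-0.20, adjusted p = 0.0277).

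The hexokinases, which trap glucose in the cell as glucose 6-phosphate, went opposite ways in shPhf5a. Hk1, the widely expressed form, rose by 0.33 (adjusted p = 0.0261, SE 0.10), and Hk2, the insulin- and hypoxia-responsive form, fell by 0.30 (adjusted p = 0.023, SE 0.09). In shPaf1 they were at -0.04 and -0.15 (adjusted p = 0.832 and 0.256). Hk1 was higher in shPhf5a than in shPaf1 by 0.37 (adjusted p = 0.0201). Neither hexokinase call held throughout. In shPhf5a the adjusted p passed 0.05 for Hk1 without shControl replicate 2 or shPhf5a replicates 2 or 3 (0.0626 to 0.0993) and Hk2 without shControl replicates 1 or 3 or shPhf5a replicates 1 or 3 (0.0528 to 0.0797), and in the direct comparison for Hk1 without shPhf5a replicate 3 or shPaf1 replicates 1 or 3 (0.0623 to 0.0798). Hk2 was lower in shPhf5a than in shPaf1 without shPhf5a replicate 2 (adjusted p = 0.00999).

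Aldoc, an aldolase gene best known from brain, fell in both knockdowns. It read 8.08, 8.43 and 8.43 in the shControl arrays, 7.45, 7.75 and 7.43 in shPhf5a and 7.87, 7.87 and 7.84 in shPaf1, and both knockdowns lay wholly below the control. The fall was 0.77 in shPhf5a (adjusted p = 0.000397, SE 0.11, 1.7-fold) and 0.45 in shPaf1 (adjusted p = 0.00848, SE 0.11, 1.37-fold), and the difference between them missed the threshold (-0.32, interval -0.56 to -0.07, adjusted p = 0.0542), though it passed without shPhf5a replicate 2 (adjusted p = 0.0102) or shControl replicate 1 (adjusted p = 0.0206). Neural markers had a list mean of 7.89 to 7.97 in shControl, 7.44 to 7.69 in shPhf5a and 7.77 to 7.86 in shPaf1. In each knockdown 3 of 6 were called lower and 1 higher, Nes (0.49 in shPhf5a and 1.61 in shPaf1). These are 66.7% called, against 37.4% and 35.8% of all genes. Above the median level, where the 6 lay in shControl, 62.1% and 59.9% of all genes were called. The part of these markers was not tested.

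The Pfkfb enzymes make and break fructose 2,6-bisphosphate, the strongest activator of phosphofructokinase, and their genes rose in shPaf1. Pfkfb2 read 7.26, 7.18 and 7.26 in the shControl arrays, 7.46, 7.43 and 7.61 in shPhf5a and 7.80, 7.87 and 7.88 in shPaf1, so that the 3 groups formed 3 separate steps. It rose by 0.62 log2 units in shPaf1 (adjusted p = 2.96e-05, SE 0.06, 1.54-fold) and by 0.26 in shPhf5a (adjusted p = 0.00514, SE 0.06). Pfkfb3, the form with the highest ratio of kinase to phosphatase activity, read 6.78, 6.71 and 6.74 in the shControl arrays, 6.38, 6.69 and 6.53 in shPhf5a and 7.29, 7.37 and 7.19 in shPaf1. Its shPaf1 arrays lay above and its shPhf5a arrays below the control. The rise of 0.54 in shPaf1 passed (adjusted p = 0.000482, SE 0.08, 1.46-fold), the -0.21 in shPhf5a did not (adjusted p = 0.0692), and without shPhf5a replicate 2 it did (adjusted p = 0.00823). Between the knockdowns Pfkfb3 differed by -0.75 (adjusted p = 0.000114) and Pfkfb2 by -0.36 (adjusted p = 0.00134).

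Along the payoff phase 5 of 8 genes fell in shPhf5a and 2 of 8 in shPaf1, where 20.7% and 17.8% of all genes were lower. None of the 8 was called higher, and all but Pgam2 lay above the median level. Of all genes above that level 62.1% and 59.9% were called, against 62.5% and 25% of these 8. Tpi1, the triose phosphate isomerase, read 11.40, 11.46 and 11.47 in the shControl arrays, 10.19, 10.69 and 10.19 in shPhf5a and 11.18, 11.15 and 11.23 in shPaf1. Every shPhf5a array lay below every other array, with replicates 1, 2 and 3 at 42.1%, 59.4% and 42.0% of the level in shControl. Tpi1 fell by 1.08 log2 units in shPhf5a (adjusted p = 8.55e-05, SE 0.12, 2.12-fold), was at -0.26 in shPaf1 (adjusted p = 0.127), and differed between the knockdowns by -0.83 (adjusted p = 0.000559). Eno3, the enolase form best known from muscle, read 10.17, 10.33 and 10.20 in the shControl arrays, 9.25, 9.50 and 9.16 in shPhf5a and 10.10, 10.10 and 9.96 in shPaf1, with shPhf5a far below the others and shPaf1 just below the control. It fell by 0.93 in shPhf5a (adjusted p = 4.16e-05, SE 0.09, 1.9-fold) and was at -0.18 in shPaf1 (adjusted p = 0.157), and the knockdowns differed by -0.75 (adjusted p = 0.000187). Without shPhf5a replicate 2 the falls of Tpi1 and Eno3 in shPaf1 passed too (adjusted p = 0.00143 and 0.0473, with the same differences). Eno2, the neuronal enolase, was at 0.03 and 0.08 in shPhf5a and shPaf1 (intervals -0.14 to 0.21 and -0.10 to 0.26).

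Pgk1, the phosphoglycerate kinase that makes the first ATP of this phase, read 12.22, 12.24 and 12.24 in the shControl arrays, 11.61, 11.85 and 11.72 in shPhf5a and 12.27, 12.10 and 12.09 in shPaf1. It fell by 0.51 in shPhf5a (adjusted p = 0.000383, SE 0.07, 1.42-fold), with no overlap, and was at -0.08 in shPaf1 (interval -0.24 to 0.08). The knockdowns differed by -0.43 (adjusted p = 0.00149). Gapdh, often taken as a reference gene, fell by 0.20 in shPhf5a (adjusted p = 0.00995, SE 0.05), a call that quantile normalization ended (-0.12, adjusted p = 0.101). In shPaf1 it was at 0.01 (interval -0.10 to 0.12). Gapdh and the mutase gene Pgam1 have near-identical pseudogenes, whose RNA a probe set may read too. Pgam1 fell by 0.36 in shPhf5a (adjusted p = 0.00268, SE 0.07) and by 0.23 in shPaf1 (adjusted p = 0.0289). Its muscle relative Pgam2, the only one of the 33 genes below the median level, fell by 0.34 in shPaf1 (adjusted p = 0.0173) and was at -0.17 in shPhf5a (adjusted p = 0.198). The mutase calls in shPaf1 could be ended by leaving out 1 array. The adjusted p was then over 0.05 for Pgam1 without shControl replicates 2 or 3 or shPaf1 replicates 2 or 3 (0.0784 to 0.114). For Pgam2 it was so without shControl replicate 1 or shPaf1 replicate 1 (0.0628 to 0.0704). Quantile normalization also ended the call of Pgam1 in shPaf1 (-0.11, adjusted p = 0.266). Pkm, the pyruvate kinase gene, passed in neither knockdown against the control (-0.12 and 0.07, adjusted p = 0.15 and 0.399). It was lower in shPhf5a than in shPaf1 with a difference of -0.19 (adjusted p = 0.0328). That call was lost for Pkm without shPhf5a replicates 1 or 3 or shPaf1 replicates 1 or 2 (0.088 to 0.119) or with only the 6 arrays fitted (0.077). The Pkm1 and Pkm2 splice forms were not separated here.

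All 4 genes of lactate handling fell in shPhf5a, and in shPaf1 2 fell and 1 rose (medians -0.51 and -0.25). Of all genes 20.7% were lower in shPhf5a and 17.8% in shPaf1. The 4 genes lay above the median level, where 62.1% and 59.9% of all genes were called higher or lower. Ldha and Ldhb encode the lactate dehydrogenase subunits that favour lactate and pyruvate, respectively. Ldha read 9.29, 9.38 and 9.35 in the shControl arrays, 8.59, 8.97 and 8.70 in shPhf5a and 9.001, 9.05 and 9.07 in shPaf1, with the 3 groups apart and shPhf5a lowest. It fell by 0.59 in shPhf5a (adjusted p = 0.000524, SE 0.09, 1.5-fold) and by 0.30 in shPaf1 (adjusted p = 0.0229, SE 0.09). Ldhb read 10.24, 10.22 and 10.27 in the shControl arrays, 10.02, 10.13 and 10.11 in shPhf5a and 9.73, 9.58 and 9.62 in shPaf1, again with no overlap, but with shPaf1 lowest. Its largest fall was the one in shPaf1, by 0.60 (adjusted p = 2.18e-05, SE 0.05, 1.52-fold), against -0.16 in shPhf5a (adjusted p = 0.0441), and shPhf5a stood above shPaf1 (0.45, adjusted p = 0.000229). Ldha differed the other way (-0.29, adjusted p = 0.0316). By adjusted p, the fall of Ldhb in shPhf5a was not called for Ldhb without shControl replicates 1, 2 or 3, shPhf5a replicates 1 or 3 or shPaf1 replicates 2 or 3 (0.0502 to 0.127), nor that of Ldha in shPaf1 for Ldha without shControl replicates 2 or 3 or shPaf1 replicates 1 or 2 (0.0592 to 0.0762), nor the difference of Ldha between the knockdowns for Ldha without shPhf5a replicates 1 or 3 or shPaf1 replicates 1, 2 or 3 (0.0613 to 0.104) or with only the 6 arrays fitted (0.0786). Quantile normalization brought the fall of Ldhb in shPhf5a to -0.08 (adjusted p = 0.261).

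Both lactate exporter genes fell in shPhf5a, and in shPaf1 Slc16a1 rose. Slc16a3 encodes MCT4, the lactate exporter of highly glycolytic cells, and Slc16a1 encodes MCT1. Slc16a3 read 8.16, 8.14 and 8.19 in the shControl arrays, 7.07, 7.37 and 7.01 in shPhf5a and 8.01, 7.93 and 7.94 in shPaf1, with the shPhf5a arrays at 47.0%, 57.5% and 45.1% of the control mean and no overlap between any groups. It fell by 1.01 in shPhf5a (adjusted p = 1.95e-05, SE 0.08, 2.02-fold) and was at -0.20 in shPaf1 (adjusted p = 0.0909; 0.00574 without shPhf5a replicate 2), a difference of -0.81 between the knockdowns (adjusted p = 8.74e-05). Slc16a1 read 11.11, 11.11 and 11.11 in the shControl arrays, 10.57, 10.89 and 10.55 in shPhf5a and 11.36, 11.35 and 11.40 in shPaf1. The 3 groups did not overlap, with shPhf5a lowest and shPaf1 highest. Slc16a1 fell by 0.44 in shPhf5a (adjusted p = 0.00187, SE 0.08, 1.36-fold) and rose by 0.26 in shPaf1 (adjusted p = 0.0293, SE 0.08), and the knockdowns differed by -0.71 (adjusted p = 0.000179). Only the rise in shPaf1 lost its adjusted p under 0.05 when 1 array was left out, for Slc16a1 without shControl replicates 1, 2 or 3 or shPaf1 replicates 1, 2 or 3 (0.0669 to 0.0874), or each array was centred (0.0605). In the 6 fits without 1 of those arrays the rise itself stayed at 0.25 to 0.27. Bsg, which encodes the chaperone basigin that carries both exporters to the membrane, was at -0.05 and 0.14 (adjusted p = 0.56 and 0.0676). Emb, a chaperone gene of the same family, fell by 0.58 in shPaf1 (adjusted p = 5.57e-05) and was at -0.11 in shPhf5a (adjusted p = 0.219).

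Of the 4 kinases that shut pyruvate dehydrogenase, 2 fell and 1 rose in each knockdown. These 3 of 4 stand beside 62.1% and 59.9% of all genes above the median level called in shPhf5a and shPaf1. Pdk1, the hypoxia-induced form, had the largest fall of the 33 genes in shPhf5a at its brightest probe set, though not with the mean over its probe sets. It read 9.41, 9.46 and 9.39 in the shControl arrays, 7.93, 8.30 and 8.01 in shPhf5a and 9.21, 9.14 and 9.17 in shPaf1, so that shPhf5a replicates 1, 2 and 3 held 35.6%, 45.9% and 37.5% of the control mean and no arrays of any groups overlapped. Pdk1 fell by 1.34 log2 units in shPhf5a (adjusted p = 5.45e-06, SE 0.08, 2.54-fold) and by 0.25 in shPaf1 (adjusted p = 0.0445, SE 0.08), and shPhf5a differed from shPaf1 by -1.09 (adjusted p = 1.91e-05). With a second, dim probe set averaged in, the differences were -0.94 in shPhf5a and -0.58 between the knockdowns (adjusted p = 0.000845 for the latter). The fall in shPaf1 was not called for Pdk1 without shControl replicates 1, 2 or 3, shPhf5a replicate 3 or shPaf1 replicates 1, 2 or 3 (0.0534 to 0.128). Pdk4, the starvation-induced form, rose in both. It read 7.14, 7.17 and 7.09 in the shControl arrays, 8.33, 8.33 and 8.45 in shPhf5a and 7.85, 7.87 and 7.87 in shPaf1, and again all 3 groups were separate. The rise was 1.24 in shPhf5a (adjusted p = 9.53e-07, SE 0.05, 2.36-fold) and 0.73 in shPaf1 (adjusted p = 4.86e-06, SE 0.05, 1.66-fold), and the knockdowns differed by 0.51 (adjusted p = 6.86e-05). Pdk3 fell by 0.37 in shPhf5a (adjusted p = 0.000503) and by 0.45 in shPaf1 (adjusted p = 0.000135), with an interval of -0.04 to 0.20 for the difference between them. Pdk2 was at 0.13 and 0.16 (adjusted p = 0.13 and 0.0677), and both passed without shControl replicate 2 (adjusted p = 0.0168 and 0.00878).

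Of the pyruvate dehydrogenase subunits only Dlat, the E2 core, passed. It read 9.31, 9.47 and 9.44 in the shControl arrays, 8.71, 9.04 and 8.69 in shPhf5a and 9.37, 9.25 and 9.25 in shPaf1, so that shPhf5a lay below all other arrays and shPaf1 overlapped the control. It fell by 0.59 in shPhf5a (adjusted p = 0.000743, SE 0.09, 1.51-fold), with -0.11 in shPaf1 (interval -0.32 to 0.09) and a difference of -0.48 between the knockdowns (adjusted p = 0.00366). The E1 genes Pdha1 and Pdhb were at -0.19 and -0.14 in shPhf5a (adjusted p = 0.199 and 0.0551) and at -0.25 and -0.04 in shPaf1 (adjusted p = 0.106 and 0.658). Pdha1 passed in both without shPhf5a replicate 2 (adjusted p = 0.00483 and 0.0119), in shPaf1 also without shPhf5a replicate 1 (adjusted p = 0.0224). Pdhb passed in shPhf5a without shPaf1 replicate 1 (adjusted p = 0.0443).

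**Figure D3:**
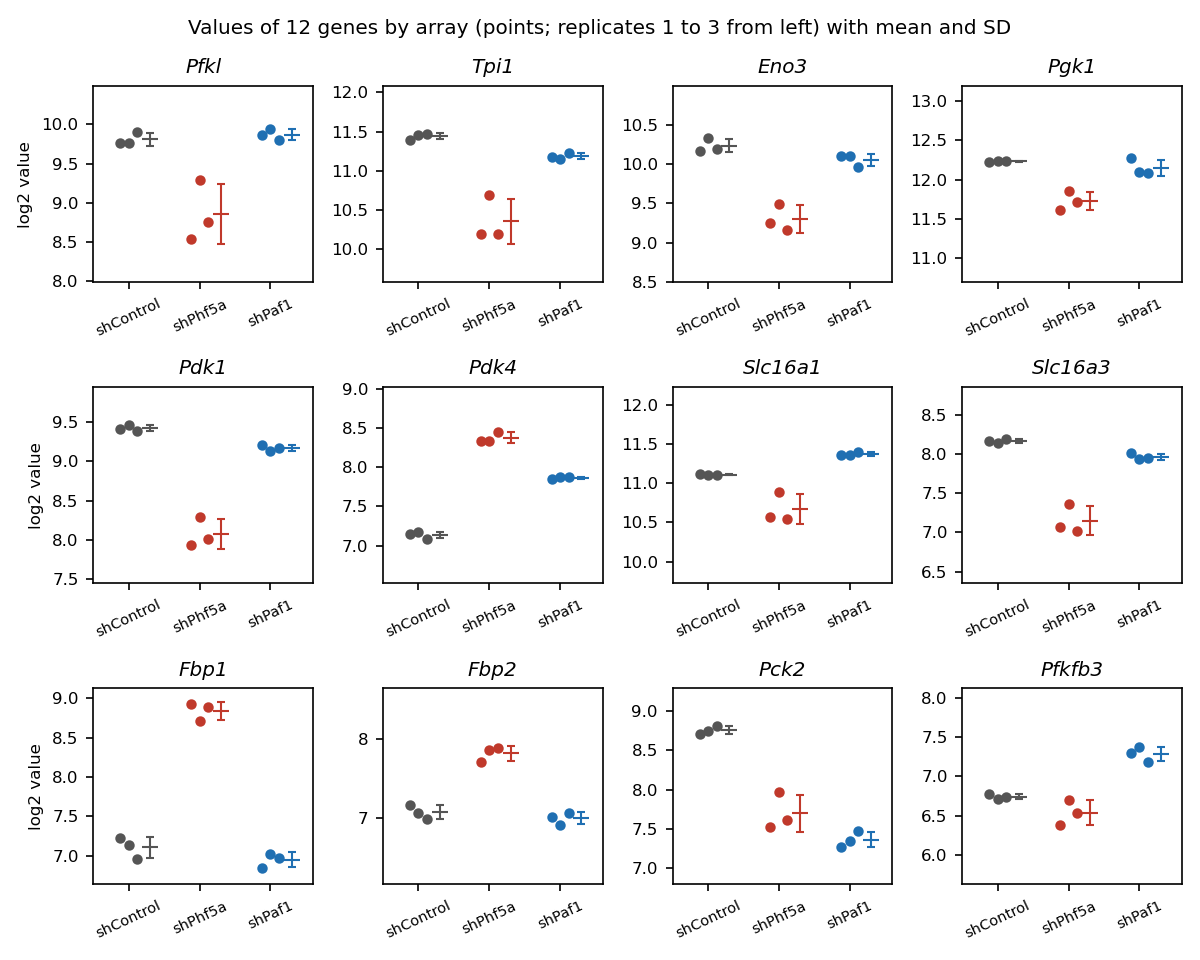
Log2 values of 12 of the genes on each array (points, replicates 1 to 3 from left to right in each group), with the group mean and SD beside them; every panel spans the same range of 2.5 log2 units. Pdk1, Tpi1, Eno3 and Slc16a3 are lowest in shPhf5a, Fbp1 and Fbp2 are highest there, Pck2 is low in both knockdowns, and Slc16a1 and Pfkfb3 are highest in shPaf1.

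Among the genes of gluconeogenesis were the largest rise in shPhf5a, of Fbp1, and the largest fall in shPaf1, of Pck2. Fructose-1,6-bisphosphatase, encoded by Fbp1 (liver form) and Fbp2 (muscle form), reverses the phosphofructokinase step. Fbp1 read 7.23, 7.13 and 6.96 in the shControl arrays, 8.92, 8.71 and 8.89 in shPhf5a and 6.84, 7.03 and 6.97 in shPaf1. All shPhf5a arrays stood above every other array, at 353%, 304% and 344% of the control mean, and shPaf1 overlapped the control. Fbp1 rose by 1.73 log2 units in shPhf5a (adjusted p = 2.07e-06, SE 0.08, 3.33-fold), was at -0.16 in shPaf1 (interval -0.35 to 0.03), and differed between the knockdowns by 1.89 (adjusted p = 1.17e-06). Fbp2 read 7.16, 7.07 and 6.98 in the shControl arrays, 7.72, 7.87 and 7.89 in shPhf5a and 7.01, 6.92 and 7.07 in shPaf1, again with shPhf5a above all and shPaf1 overlapping the control. It rose by 0.75 in shPhf5a (adjusted p = 3.53e-05, SE 0.07, 1.69-fold), was at -0.07 in shPaf1 (interval -0.23 to 0.08), and differed between them by 0.83 (adjusted p = 2.72e-05). Of 6 muscle markers 2 (33.3%) were called in shPhf5a, against 37.4% of all genes. Both were higher, Ckm from 6.57 to 7.37 and Des from 8.10 to 8.51. The other 4 were not called there, and Myod1 stayed dim at 6.60 and 6.54. The list mean was 6.57 to 6.63 in shControl and 6.73 to 6.83 in shPhf5a. In shPaf1 Des was called lower (-0.22, adjusted p = 0.0241). Whether these markers bear on Fbp2 was not tested.

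Pck2, the mitochondrial form of phosphoenolpyruvate carboxykinase and a known target of ATF4, fell in both knockdowns. It read 8.71, 8.74 and 8.82 in the shControl arrays, 7.53, 7.97 and 7.61 in shPhf5a and 7.27, 7.35 and 7.47 in shPaf1. The knockdown arrays lay below the control throughout, at 42.6%, 57.9% and 45.1% of its mean in shPhf5a and 35.7%, 37.7% and 40.9% in shPaf1. Pck2 fell by 1.06 in shPhf5a (adjusted p = 5.54e-05, SE 0.11, 2.08-fold) and by 1.39 in shPaf1 (adjusted p = 8.42e-06, SE 0.11, 2.63-fold), and it was higher in shPhf5a than in shPaf1 by 0.34 (adjusted p = 0.0362). G6pc3, the widely expressed glucose-6-phosphatase, fell by 0.32 and 0.33 in shPhf5a and shPaf1 (adjusted p = 0.0163 and 0.0143). An adjusted p above 0.05 was found in shPhf5a for G6pc3 without shControl replicate 1 or shPhf5a replicates 1 or 3 (0.0526 to 0.0611), in shPaf1 for G6pc3 without shControl replicate 1 or shPaf1 replicates 1 or 3 (0.0519 to 0.0558), and for the direct comparison of Pck2 without shControl replicates 1, 2 or 3 or shPaf1 replicates 1 or 2 (0.053 to 0.125). That difference of Pck2 also lost its call with each array centred (0.0585) or only the 6 arrays fitted (0.0893), and was 0.21 without shPhf5a replicate 2.

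Other genes of central carbon metabolism and its control were taken from 6 lists, of which 102 of 116 genes were measured. In shPhf5a 31 were lower and 19 higher, in shPaf1 24 and 20, and in the direct comparison 30 lower and 17 higher. These are 49.0%, 43.1% and 46.1% called, against 37.4%, 35.8% and 29.0% of all genes. Above the median level 62.1%, 59.9% and 48.1% of all genes were called, and the 6 lists were not split by level. Median differences in shPhf5a and shPaf1 were -0.03 and -0.01 for all genes tested, -0.08 and -0.05 for other glycolysis genes, -0.09 and -0.03 for pyruvate entry and gluconeogenesis, -0.05 and -0.07 for the pentose phosphate pathway, -0.07 and 0.18 for the hypoxia-inducible factor pathway and -0.07 and 0.01 for regulators. They were -0.32 and -0.15 for the list of glycogen and side branches, where 8 of 12 were lower and 2 higher in shPhf5a and 5 and 2 in shPaf1, in all 83.3% and 58.3%. The serine synthesis gene Phgdh fell by 1.09 and 0.87 in shPhf5a and shPaf1 (adjusted p = 0.000132 and 0.000439). Gfpt2, of the hexosamine branch, fell by 0.92 and 1.27 (adjusted p = 0.000179 and 2.22e-05), and the glycogen synthase gene Gys1 by 0.82 and 0.31 (adjusted p = 0.000128 and 0.0265). The pentose phosphate list had 4 of 10 higher and 2 lower in shPhf5a, and 2 and 3 in shPaf1, in all 60% and 50%. H6pd, which starts that pathway in the endoplasmic reticulum, rose by 0.74 in shPhf5a (adjusted p = 0.000191) and was at 0.02 in shPaf1, and Rpia, the ribose-5-phosphate isomerase gene, rose by 0.67 and 0.72 (adjusted p = 0.00134 and 0.000893).

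Further glycolysis genes were lower in 5 and higher in 3 of 22 in shPhf5a, and lower in 5 of 22 in shPaf1. The share called, 36.4% in shPhf5a, was near the 37.4% of all genes, and the 22.7% in shPaf1 was below the 35.8% of all genes. Bpgm, which makes 2,3-bisphosphoglycerate, fell by 0.74 and 0.35 (adjusted p = 0.000107 and 0.00736), and Galm, the galactose mutarotase gene, fell by 0.75 in shPaf1 (adjusted p = 7.7e-06) with -0.06 in shPhf5a. Among 17 genes of pyruvate entry and gluconeogenesis 4 were lower and 4 higher in shPhf5a, and 4 and 3 in shPaf1, in all 47.1% and 41.2% of them. Above the median level the shares over all genes were 62.1% and 59.9%, and neither list was split by level. The malic enzyme gene Me1 rose by 0.60 in shPhf5a (adjusted p = 0.000129), and the pyruvate carrier gene Mpc1 by 0.47 (adjusted p = 0.00796), while Pcx, the pyruvate carboxylase gene that feeds gluconeogenesis, rose by 0.32 and 0.44 (adjusted p = 0.0018 and 0.000251).

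Genes of the hypoxia-inducible factor pathway outside the 33 numbered 23. Of these 9 were higher and 5 lower in shPaf1, 3 were higher and 6 lower in shPhf5a, and in the direct comparison 12 were lower and 4 higher in shPhf5a. The shares called were 60.9%, 39.1% and 69.6%, in that order, against 35.8%, 37.4% and 29.0% of all genes. Of all genes above the median level 59.9%, 62.1% and 48.1% were called, and the list was not split by level. Hif1a itself was at -0.01 and -0.01 (intervals -0.10 to 0.08 and -0.10 to 0.08), and Vhl, which marks its protein for decay, fell by 0.72 and 0.53 (adjusted p = 0.0012 and 0.00701). Of its known targets, the collagen hydroxylase genes P4ha2 and Plod2 rose in shPhf5a by 1.78 and 0.78 (adjusted p = 8.52e-06 and 4.03e-05) and in shPaf1 by 0.91 and 0.97 (adjusted p = 0.000299 and 8.47e-06). Ndrg1 rose by 0.51 and 0.99 (adjusted p = 0.000964 and 1.68e-05). Fam162a fell by 0.80 in shPhf5a (adjusted p = 0.000763) and was at 0.15 in shPaf1.

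Of 18 regulators of these genes 6 were lower and 3 higher in shPhf5a, and 2 and 4 in shPaf1. That is 50% called in shPhf5a, against 37.4% of all genes, and 33.3% in shPaf1, near the 35.8% of all genes. Above the median level the shares over all genes were 62.1% and 59.9%, and the regulators were not split by level. Mlx, the partner of the glucose sensors MondoA and ChREBP, fell by 0.97 and 0.66 (adjusted p = 7.06e-05 and 0.000591). Myc fell by 0.85 in shPhf5a (adjusted p = 0.000933) and was at 0.03 in shPaf1 (interval -0.28 to 0.34), a difference of -0.88 (adjusted p = 0.0011). Foxo3, a starvation-responsive transcription factor gene, rose by 0.98 and 0.52 (adjusted p = 1.37e-05 and 0.000386), and Mlxip, which encodes MondoA, rose by 0.65 in shPaf1 (adjusted p = 0.000163) and was at 0.05 in shPhf5a.

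**Figure D4:**
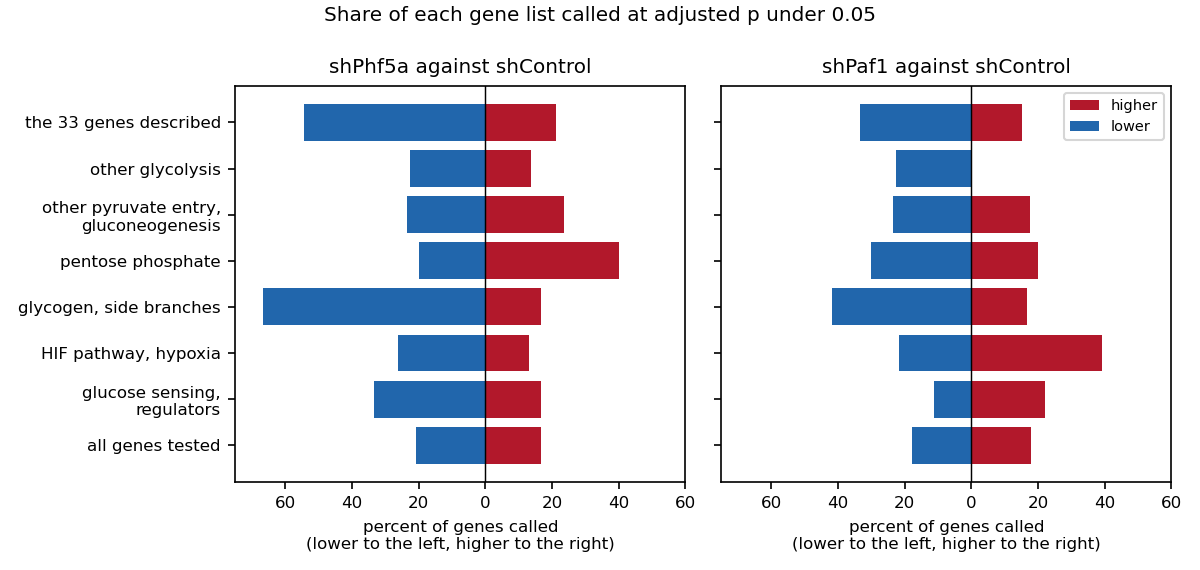
Percent of measured genes called lower (blue, to the left) or higher (red, to the right) than shControl at an adjusted p under 0.05, for the 33 genes, the 6 other lists and all genes tested, in shPhf5a (left panel) and shPaf1 (right panel). The 33 genes and the glycogen and side-branch list extend furthest to the left in shPhf5a, and the hypoxia list extends furthest to the right in shPaf1.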

How the data were processed

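The authors deposited log2 expression values, 1 per probe set (33793) and array (9); how they were made (software, background correction, normalization, log base) is "not given in the sources used here", and log2 was inferred from their range (4.35 to 13.7). Per the labels' protocols, 125 ng of total RNA was converted to cDNA and labelled with whole-transcript kits. Dim genes are compressed on such arrays, and the number of arrays limits precision. Of the probe sets 23521 had 1 gene symbol, 1814 several and 8458 were not listed; 23328 of the first were found by gene ID in RefSeq (GRCm38.p6), all with the same symbol.

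Group means over all 9 arrays were compared with limma 3.58.1 (lmFit, eBayes; R 4.3.3), with Benjamini-Hochberg adjustment over 22180 genes at 0.05; all adjusted p-values are from it. SE and 95% intervals are limma's. The fit was tested on simulated data. Genes changed by at least 0.5 log2 units in a called comparison are given by array, and of the other lists up to 4 called genes with the largest change. Hif1a, Vhl and Bsg fall outside that rule and were named for their roles, after their values were seen. The genes and lists were chosen with earlier results of these data known. No slide, scan or detection data were used, and no batch could be tested. Alternatives were quantile normalization, median centring, a filter on dim genes, other choices among probe sets, trend and robust fits, array weights, a fit of 6 arrays, the replicate block and leaving out each array.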

Additional observations from a re-analysis of the deposited data

Results flagged for a closer look

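Slc16a1, the MCT1 gene, was called in opposite directions by the 2 knockdowns, with every shPhf5a array below and every shPaf1 array above the control mean. The difference between shPhf5a and shPaf1 was -0.71 log2 units (SE 0.08, limma adjusted p = 0.000179). The rise in shPaf1 lost its call without any 1 of the 6 arrays compared, though it stayed at 0.25 to 0.27 log2 units. It kept its call when only those 6 arrays were fitted. The fall in shPhf5a and the difference between the knockdowns held under all 18 settings.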

How the results depend on the processing

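No called difference of the 33 genes changed sign under 18 alternatives, 9 settings and 9 fits without 1 array. The counts of lower and higher genes in shPhf5a (18 and 7) stayed between 14 and 22 and between 5 and 7. In shPaf1 the count of lower genes (11) was 5 to 15 without 1 array, and that of higher genes (5) was 4 to 6. The median difference in shPaf1 (-0.15) was -0.17 with each array centred, -0.11 with quantile normalization, -0.14 with only genes above the median level and -0.14 with array weights, and -0.17 to -0.13 without 1 array. The cause of these shifts was not tested. With the replicate block 17 genes were lower and 7 higher in shPhf5a, 10 and 5 in shPaf1, and 13 and 7 in the direct comparison; it ended the calls of Ldhb in shPhf5a, Pgam1 in shPaf1 and Pkm between the knockdowns and added that of Aldoc between them. The labels do not say that replicate numbers pair samples. Deviations of same-numbered arrays correlated between -0.06 and 0.11, which cannot show whether those arrays shared a preparation. In the direct comparison the counts (13 lower and 7 higher) were 11 to 15 and 5 to 7, and the median (-0.10) was -0.13 to -0.07. Counts over the 6 other lists together stayed within 1.5 times of the main counts, and single lists and their medians were not rerun. Leaving arrays aside, the settings that ended calls in shPhf5a were quantile normalization (Gapdh, Pfkp, Ldhb), centring (Slc2a3), the mean over probe sets (Slc2a1), the fit of 6 arrays (Hk1, Hk2, Pfkp, Ldhb) and the trended and robust variance (Ldhb). In shPaf1 they were quantile normalization (Pgam1), centring (Slc16a1) and the mean over probe sets (Slc2a1), and in the direct comparison centring (Pck2) and the fit of 6 arrays (Pck2, Ldha, Pkm). Settings other than leaving out an array also added calls, of Pfkfb3, Pdhb, Pgam2 or Pdha1 in shPhf5a. In shPaf1 they added calls of Tpi1, Pdha1, Slc16a3, Pdk2 or Pkm, and in the direct comparison of Aldoc, Hk2 or Slc2a1. Arrays give no detection limit here, and small changes of dim genes may be missed.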

Other observations

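Further probe sets of 4 of the genes were read. A dim Pdk1 probe set had means of 5.24, 4.70 and 4.76 log2 units in shControl, shPhf5a and shPaf1, and a Pgam1 probe set had 11.14, 10.81 and 10.82. For Gapdh, 1 probe set had 12.92, 12.77 and 12.92 and the other 8.45, 8.11 and 8.44. A further 8 probe sets named Gapdh together with another gene and were not used.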
